A study of Mus musculus with 6 samples.

Results

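Annexins were examined in epithelial cells of the mouse large intestine that lack the histone deacetylase HDAC3. The family was taken as 10 listed genes, Anxa1 to Anxa7, Anxa10, Anxa11 and Anxa13, out of 19533 genes with a usable signal, each to be read through whichever of its probe sets had the largest signal averaged over 6 arrays. That averaged signal is the measured value the members' probe sets were chosen by, and it decided nothing, since each of the 10 has a single probe set that names it alone. Anxa8 and Anxa9, which the array also carries, were not on the list and are given beside it, which makes 12 annexins in all. The family was picked with the genotype difference of Anxa13 already known, and its values are therefore a description of these 6 mice rather than a new test.

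The knockout mice, HDAC3ΔIEC, carry an Hdac3 deletion intrinsic to intestinal epithelial cells, and their controls, HDAC3FF, carry floxed Hdac3 alleles. Both groups are C57BL/6 and germ-free, with 3 biological replicates each and 1 Affymetrix array of total RNA per mouse, hybridised from live EpCAM-positive cells of the large intestine. The sources used here do not give the Cre driver of the deletion or the age and sex of the mice. The comparison asks which transcripts differ with epithelial HDAC3 when no microbiota is present.

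Annexins are cytosolic proteins that bind acidic phospholipids when calcium rises, through a core of repeats that the family shares, and differ mainly in their amino-terminal tails. By bridging membranes they take part in exocytosis, endosome traffic, membrane repair and the organisation of lipid domains under the plasma membrane. Several members pair with small EF-hand proteins of the S100 family. In the gut, Anxa13 is known as an annexin of the intestinal and renal epithelium, Anxa2 and Anxa4 lie near the apical membrane of epithelial cells, and Anxa1 is a secreted mediator that acts on formyl peptide receptors during resolution of inflammation and wound closure.

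Hdac3 had log2 signals of 6.58, 6.22 and 6.00 on the HDAC3ΔIEC arrays, against 6.96, 7.36 and 7.04 on the HDAC3FF arrays. The groups did not overlap, and the difference of -0.86 ± 0.17 log2 units (SE) missed the threshold (limma adjusted p = 0.0937). Whether its probe set reads the deleted exons is not known here, so that it is a weak check of the genotype. The 9 epithelial markers lay above the array median in all mice, with Epcam at 10.85 ± 0.11 in HDAC3ΔIEC and 10.91 ± 0.13 in HDAC3FF (SD, n = 3 each). The dimmest of them was Cdx1, at 7.08 ± 0.12 and 7.06 ± 0.21. Of the markers of other cells, 8 of 11 myeloid, 6 of 7 T and NK cell, 5 of 5 B and plasma cell, 7 of 10 fibroblast and muscle, 6 of 6 endothelial and 4 of 5 neuronal and glial genes had mean signals under the median of every array. The brightest member of each of these lists, in that order, was Cd14, Ccl5, Cd79b, Vim, Vwf and Ret, and none of these 6 passed. Of all measured markers of other cells, only the myeloid C1qa passed (-1.71 ± 0.19, SE, limma adjusted p = 0.0204). The averaged myeloid markers ran from 4.64 to 4.76 on the HDAC3ΔIEC arrays and from 4.86 to 4.91 on the HDAC3FF arrays. Over all 19533 genes 137 passed limma's test at a Benjamini-Hochberg adjusted p under 0.05, which is 0.701% (0.369% higher and 0.333% lower in HDAC3ΔIEC). The averaged neuronal and glial markers ran from 4.59 to 4.66 on the HDAC3ΔIEC arrays and from 4.41 to 4.52 on the HDAC3FF arrays. Within that list Ret differed by 0.60 ± 0.13 log2 units (SE) with no overlap, and the others by -0.05 to 0.14. The part of the myeloid, neuronal and glial markers in the annexin values was not tested. Precision is limited by having only 3 mice in each genotype, and p-values measure the spread between these mice.

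Among the 10 listed annexins Anxa13 fell in HDAC3ΔIEC, none rose and 9 did not pass. The share of lower calls over all genes was 0.333%. The groups did not overlap for 4 annexins, with Anxa3 and Anxa4 higher and Anxa5 and Anxa13 lower in HDAC3ΔIEC, against 16.2% of all genes (8.45% higher, 7.7% lower). The same 4 had an unadjusted limma p under 0.05, against 11.2% of all genes. The median log2 fold change of the 10 was -0.01, against 0.01 over all genes, and the single values ran from -1.78 for Anxa13 to 0.56 for Anxa3. The median size of the difference regardless of sign was 0.21 in the 10 annexins, 0.18 with Anxa8 and Anxa9 added, and 0.10 over all genes. The annexins and all genes are not alike in brightness, so these sizes are not a like comparison. Anxa1, Anxa2, Anxa3, Anxa4 and Anxa11 lay above the 90th percentile on all 6 arrays, while all genes include many dim ones. The family was also picked with Anxa13 known. Of the log2 fold changes of the 10, 4 were positive and 6 negative.

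**Figure D1:**
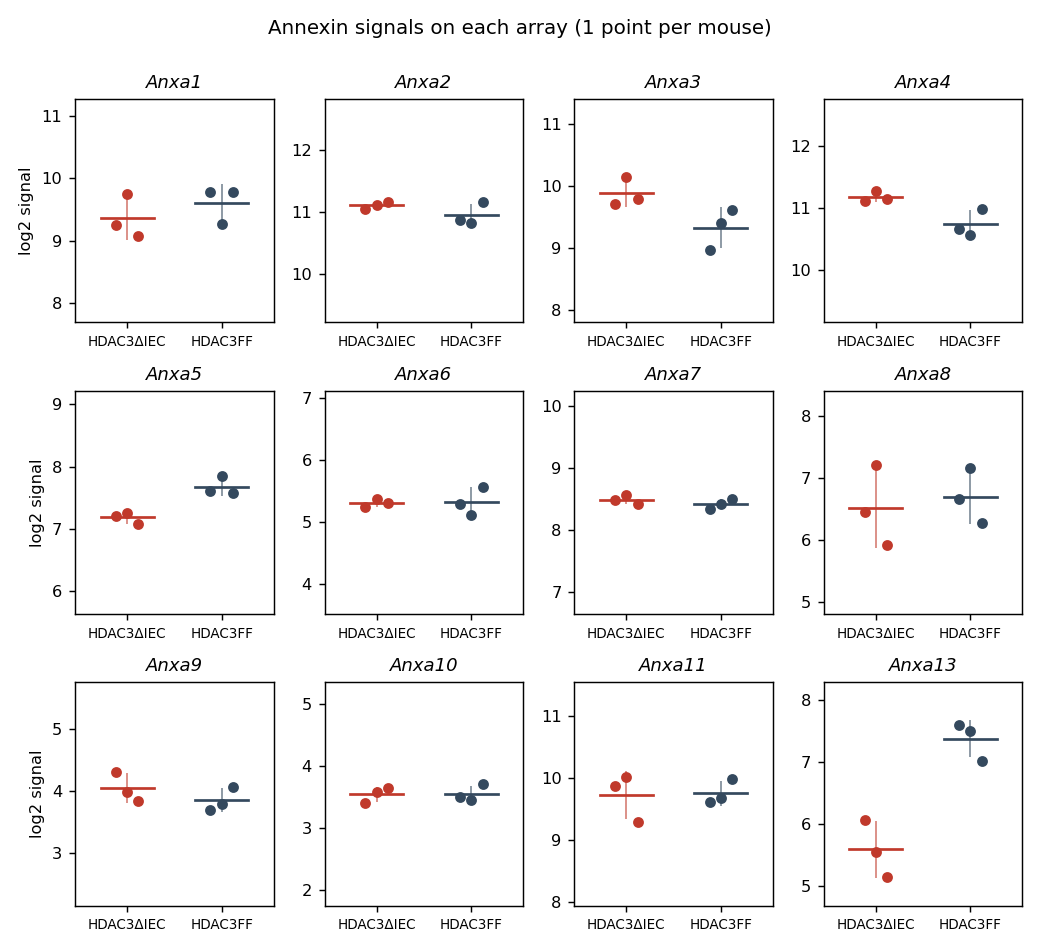
Log2 signal of the 12 annexins on each array, with HDAC3ΔIEC left and HDAC3FF right in each panel; points are mice, thick lines group means and thin lines ± 1 SD. Every panel spans the same number of log2 units, levels of different genes cannot be set against each other, and the 3 HDAC3ΔIEC points lie under all HDAC3FF points for Anxa5 and Anxa13 and above them for Anxa3 and Anxa4.

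Anxa13 is regarded as the oldest member of the vertebrate family and has a myristoylated amino terminus. In canine kidney cells one of its isoforms takes part in carrying vesicles to the apical membrane. Its log2 signals were 6.06, 5.55 and 5.14 on the HDAC3ΔIEC arrays, against 7.59, 7.49 and 7.02 on the HDAC3FF arrays. The highest HDAC3ΔIEC array lay 0.96 log2 units under the lowest HDAC3FF array, a gap larger than the SD within either group. The means were 5.59 ± 0.46 in HDAC3ΔIEC and 7.37 ± 0.30 in HDAC3FF (SD, n = 3 each), so the gene fell 3.44-fold, to 29% of the HDAC3FF level. Its log2 fold change was -1.78 ± 0.25 (SE), with a 95% confidence interval of -2.36 to -1.20 and a limma adjusted p of 0.0356. In RNA from a bulk sort, fewer cells with a transcript and less of it per cell cannot be told apart.

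The fall of Anxa13 kept its direction without any 1 array, as groups that do not overlap must, with log2 fold changes from -2.02 to -1.56. It still passed without HDAC3ΔIEC replicate 1 (limma adjusted p = 0.0467) and without HDAC3FF replicate 3 (0.0168). It no longer passed without HDAC3ΔIEC replicate 2 (limma adjusted p = 0.166) or 3 (0.076), or without HDAC3FF replicate 1 (0.146) or 2 (0.116). The share of all genes that passed moved as well, to 0.235%, 0.0717% and 0.148% without HDAC3ΔIEC replicates 1, 2 and 3, and to 0.0666%, 0.235% and 2.2% without HDAC3FF replicates 1, 2 and 3. Its signal lay above the 75th percentile of the array on 2 HDAC3FF arrays, and under the array median on 1 HDAC3ΔIEC array.

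Anxa5, which binds phosphatidylserine on the outer face of dying cells and is the protein behind the common apoptosis stain, was the other member whose groups lay apart with lower values in HDAC3ΔIEC. It read 7.20, 7.26 and 7.07 on the HDAC3ΔIEC arrays, against 7.61, 7.84 and 7.57 on the HDAC3FF arrays. The groups lay 0.31 log2 units apart, with little spread inside either of them. The means were 7.18 ± 0.10 in HDAC3ΔIEC and 7.67 ± 0.14 in HDAC3FF (SD, n = 3 each), that is 70.9% of the HDAC3FF level. The log2 fold change of -0.50 ± 0.10 (SE, 95% confidence interval -0.74 to -0.25) did not pass (limma adjusted p = 0.106), and it did not pass without any 1 of the 6 arrays either (0.0656 to 0.287). Anxa5 is also made by many non-epithelial cells. Beside it, the mean signal of the 11 myeloid markers ran from 4.64 to 4.76 on the HDAC3ΔIEC arrays and from 4.86 to 4.91 on the HDAC3FF arrays, while without C1qa, the 1 of them that passed (-1.71 ± 0.19, SE, limma adjusted p = 0.0204), the ranges of the groups overlapped, an alternative added after the data were seen. The averaged fibroblast and muscle markers also overlapped between the genotypes. The part of these markers in the values of Anxa5 was not tested.

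Anxa4, an annexin of secretory and absorptive epithelia that aggregates membranes and dampens a calcium-activated chloride conductance, had higher values. It read 11.11, 11.27 and 11.15 on the HDAC3ΔIEC arrays, against 10.66, 10.56 and 10.99 on the HDAC3FF arrays. HDAC3FF replicate 3 stood closest to the HDAC3ΔIEC mice, at a distance of 0.12 log2 units. The log2 fold change was 0.44 ± 0.13 (SE, 95% confidence interval 0.14 to 0.73), or 1.35-fold, and did not pass (limma adjusted p = 0.226). Without HDAC3FF replicate 3 the log2 fold change was 0.57 ± 0.10 and passed (limma adjusted p = 0.0395). The share of all genes that passed rose with that omission too, from 0.701% to 2.2%. With any other single array left out, the log2 fold change of Anxa4 ran down to 0.35 and did not pass.

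Anxa3 also had higher values, with more spread. It is expressed in neutrophils and in several epithelia, where it is less well characterised than its relatives. It read 9.72, 10.15 and 9.79 on the HDAC3ΔIEC arrays, against 8.97, 9.41 and 9.61 on the HDAC3FF arrays, so that the groups were separated by 0.11 log2 units between their nearest mice. The log2 fold change was 0.56 ± 0.19 (SE, 95% confidence interval 0.12 to 0.99), or 1.47-fold, and did not pass (limma adjusted p = 0.295). Leaving out HDAC3FF replicate 1 gave 0.38, leaving out HDAC3ΔIEC replicate 2 gave 0.43, and no omission of a single array made it pass (limma adjusted p from 0.112 to 0.651). Beside these values, Krt8, Krt18, Krt19 and Krt20, keratins of the intestinal epithelium, had log2 fold changes of 0.26 ± 0.08, 0.53 ± 0.16, 0.30 ± 0.09 and 0.41 ± 0.16 (SE). None of them passed, and for each the groups did not overlap, as for Anxa3 and Anxa4. These keratins had the 4 highest log2 fold changes of 9 epithelial markers, the list median was 0.18, and the transcription factor genes Cdx1 and Cdx2 stood at 0.02 ± 0.12 and -0.22 ± 0.10. The part of these markers in the values of Anxa3 and Anxa4 was not tested.

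The promoter windows of Anxa4 and Anxa5 are printed because these were the members with opposite, non-overlapping differences for which RefSeq's table holds one. They run from 250 bases before to 50 after an annotated start in GRCm38.p6, at chr6:86793535-86793834 on the minus strand for Anxa4 (the upstream of 2 windows) and chr3:36475838-36476137 on the minus strand for Anxa5. Capitals mark the motifs that were searched for on both strands, which were the TATA box (TATAAA), the CCAAT box (spelled as its name), the GC box (GGGCGG), the hexamer bound by many nuclear receptors (AGGTCA) and the AP-1 site (TGANTCA).
Anxa4: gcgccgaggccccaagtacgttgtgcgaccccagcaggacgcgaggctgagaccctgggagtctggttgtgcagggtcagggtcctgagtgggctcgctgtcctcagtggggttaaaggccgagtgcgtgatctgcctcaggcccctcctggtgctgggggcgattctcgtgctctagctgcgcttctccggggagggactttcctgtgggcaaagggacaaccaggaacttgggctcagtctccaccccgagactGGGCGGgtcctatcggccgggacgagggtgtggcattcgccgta
Anxa5: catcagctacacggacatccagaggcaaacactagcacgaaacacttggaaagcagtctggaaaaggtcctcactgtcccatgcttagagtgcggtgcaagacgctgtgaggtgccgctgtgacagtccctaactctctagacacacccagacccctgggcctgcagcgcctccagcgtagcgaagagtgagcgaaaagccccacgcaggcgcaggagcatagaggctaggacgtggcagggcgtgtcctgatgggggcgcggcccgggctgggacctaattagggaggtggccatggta
Both windows are rich in G and C, at 65.3% for Anxa4 and 60.3% for Anxa5, against a median of 52.7% over 32817 windows of the same length. The Anxa4 window held 1 match, to the GC box GGGCGG, 6 bases after the start, and the Anxa5 window none. Over the 9 annexins that have a window, GGGCGG was found in the most upstream window of 4 (Anxa2, Anxa4, Anxa7 and Anxa11), against 35.6% of all windows. The TATA box TATAAA was found in 3 (Anxa1, Anxa2 and Anxa10), against 13.6%, and the AP-1 site TGANTCA in 2 (Anxa2 and Anxa10), against 7.81%. The CCAAT box (37.4% of all windows) and AGGTCA (16.3%), were found in the most upstream window of 0 of the 9, and AGGTCA once in the second window of Anxa9. No match overlapped a match to another motif. A match to letters is a description and not a site. Anxa3, Anxa6 and Anxa13 have no window in the table.

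Anxa1 and Anxa2 are among the members known to pair with S100 proteins and to have extracellular roles, which were not measured here. Anxa1, a glucocorticoid-induced protein, read 9.25, 9.75 and 9.07 on the HDAC3ΔIEC arrays, against 9.79, 9.27 and 9.79 on the HDAC3FF arrays. The groups overlapped, with HDAC3ΔIEC replicate 2 among the higher controls and HDAC3FF replicate 2 among the lower HDAC3ΔIEC mice, and the log2 fold change of -0.26 ± 0.21 (SE) had a 95% confidence interval of -0.75 to 0.24. Anxa2, which forms a complex with S100a10 at the inner plasma membrane and binds plasminogen at the cell surface, read 11.05, 11.12 and 11.17 on the HDAC3ΔIEC arrays, against 10.87, 10.82 and 11.16 on the HDAC3FF arrays. HDAC3FF replicate 3 lay among the HDAC3ΔIEC mice while the other controls lay under them, and the log2 fold change of 0.16 ± 0.11 had an interval of -0.10 to 0.42.

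Anxa7 and Anxa11, which have long amino-terminal tails and bind the calcium sensor ALG-2, had close group means, with more spread between mice for Anxa11. Anxa7 read 8.48, 8.56 and 8.41 on the HDAC3ΔIEC arrays, against 8.33, 8.41 and 8.49 on the HDAC3FF arrays. Its log2 fold change of 0.07 ± 0.09 (SE) had the narrowest interval of the 10, from -0.13 to 0.27. Anxa11, which tethers RNA granules to lysosomes, read 9.86, 10.01 and 9.29 on the HDAC3ΔIEC arrays, against 9.60, 9.67 and 9.98 on the HDAC3FF arrays. HDAC3ΔIEC replicate 3 stood apart, under all other mice, and the log2 fold change was -0.03 ± 0.20 with all arrays and 0.18 ± 0.14 without that one. With all arrays the 95% confidence interval of Anxa11 ran from -0.50 to 0.43, too wide to show that the genotypes are alike.

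Anxa6, whose core is built of a larger number of repeats than that of its relatives and which binds cholesterol-rich late endosomes, read 5.24, 5.38 and 5.31 on the HDAC3ΔIEC arrays, against 5.29, 5.11 and 5.57 on the HDAC3FF arrays. Its values lay around the median of the arrays, and the log2 fold change was -0.01 ± 0.13 (SE, 95% confidence interval -0.31 to 0.29). Anxa10, a member best known from gastric epithelium, read 3.40, 3.58 and 3.64 on the HDAC3ΔIEC arrays, against 3.50, 3.45 and 3.71 on the HDAC3FF arrays. All 6 values lay under the 25th percentile of their array, where transcripts that are not expressed also lie, and the file does not mark signals below background. Its log2 fold change was -0.01 ± 0.11.

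Of the annexins not listed, Anxa8, which is found in stratified and other epithelia, had the widest spread. It read 6.45, 7.20 and 5.91 on the HDAC3ΔIEC arrays, against 6.66, 7.15 and 6.27 on the HDAC3FF arrays. The groups overlapped, with SDs of 0.65 in HDAC3ΔIEC and 0.44 in HDAC3FF, and the log2 fold change of -0.17 ± 0.35 (SE) had an interval of -0.99 to 0.64, too wide to show any but a large difference. Anxa9 read from 3.83 to 4.30 on the HDAC3ΔIEC arrays and from 3.69 to 4.06 on the HDAC3FF arrays. These values lay under the array median on all 6 and under the 25th percentile on 5, where transcripts that are not expressed also lie. The log2 fold change of Anxa9 was 0.19 ± 0.15.

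**Figure D2:**
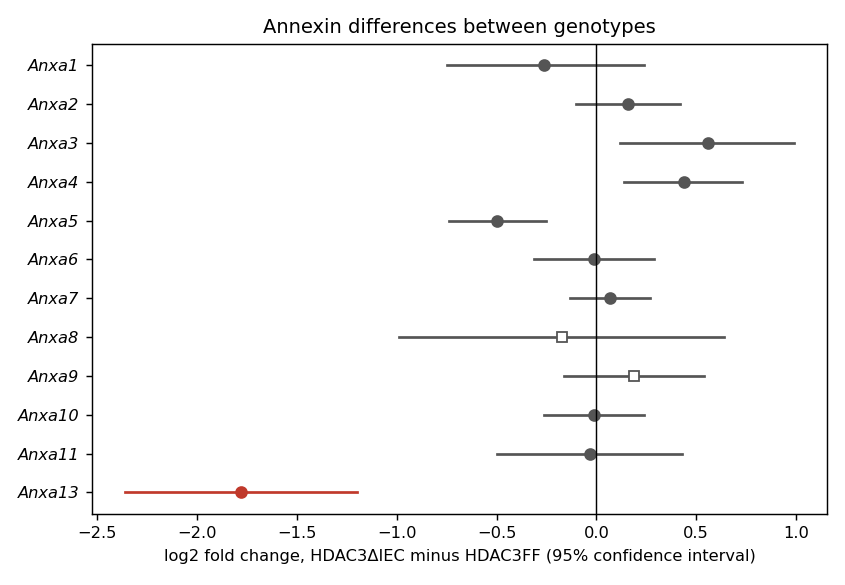
Log2 fold change of each annexin, HDAC3ΔIEC minus HDAC3FF, with limma's 95% confidence interval; filled circles are the 10 listed annexins, open squares Anxa8 and Anxa9, and red marks an adjusted p under 0.05. Anxa13 alone stands beyond -1, at -1.78, and the intervals of Anxa3 and Anxa4 (above 0) and Anxa5 (below 0) also leave out 0 before adjustment over all genes.

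With each array left out in turn, the 4 annexins whose groups do not overlap stayed on their side of 0. Anxa5 ran from -0.55 to -0.41, Anxa4 from 0.35 to 0.57 and Anxa3 from 0.38 to 0.70. Only Anxa13 and Anxa4 changed their call in any of these refits, which the plot of the refits marks by filled and open points.

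**Figure D3:**
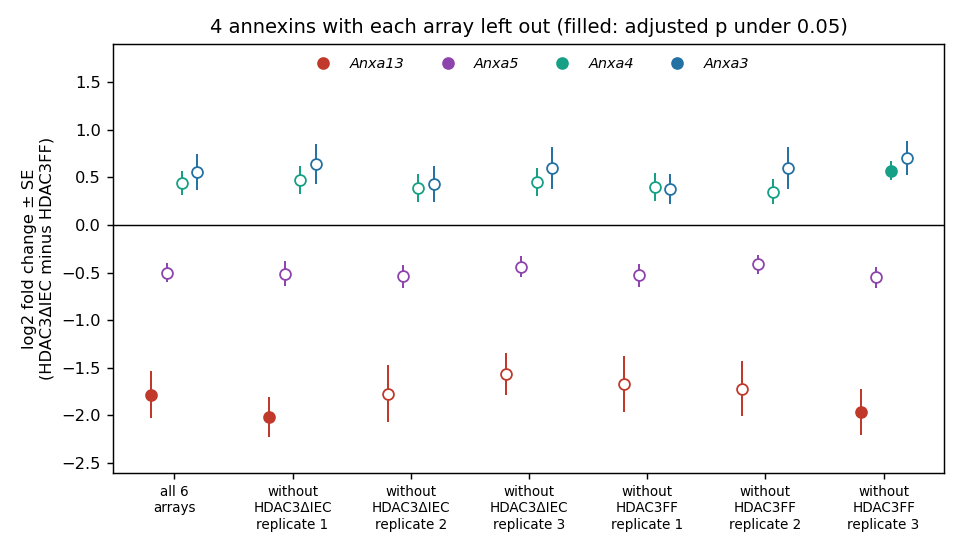
Log2 fold change ± SE of Anxa13, Anxa5, Anxa4 and Anxa3 with all 6 arrays and without each array in turn; filled points have a limma adjusted p under 0.05. Anxa13 is filled with all arrays and in 2 of the 6 refits, Anxa4 in 1, and Anxa3 and Anxa5 in none.

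RefSeq's GRCm38.p6 order gave 22 measured protein-coding neighbours of the 12 annexins, and 2 that were not measured. Of the 22, 0 had a limma adjusted p under 0.05, against 0.701% of all genes, at which a count of 0 among 22 shows nothing about the neighbours. Those of Anxa13 were Klhl38 and Fam91a1, with log2 fold changes of 0.02 ± 0.09 and -0.07 ± 0.10 (SE). Those of Anxa4 were Gmcl1 (-0.46 ± 0.11, limma adjusted p = 0.134) and Aak1 (0.17 ± 0.12), and those of Anxa5 were Qrfpr (0.08 ± 0.13) and 1810062G17Rik (0.05 ± 0.09). Neither measured neighbour of Anxa13 passed.

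The genes most like Anxa13 over the 6 arrays, among 9422 genes with a mean above the median of all genes and a symbol that is not a clone name, were the splicing factor gene Prpf39 (Pearson r = 0.996), the UDP-glucuronosyltransferase gene Ugt2b34 (0.994) and the homeobox gene Mkx (0.991). Each was lower in HDAC3ΔIEC, at log2 fold changes of -0.30 ± 0.09, -0.55 ± 0.10 and -0.79 ± 0.14 (SE), and none of them passed. The points share the 2 genotypes, so the group difference enters every r. Among the annexins, r to Anxa13 was 0.935 for Anxa5 and -0.894 for Anxa4, and otherwise between -0.831 for Anxa3 and 0.408 for Anxa1.

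Beside the annexins, 10 lists of binding partners, related proteins and related processes were read, with 137 genes, of which 123 were measured. All are called partner genes for short. A place on a list, such as that of Ereg, Myof or Plaat3, does not mean that the protein binds an annexin. Over the 123 measured genes, 3 rose, 4 fell and 116 did not pass, against 0.369% of all genes that rose and 0.333% that fell. The genes that rose were Ereg, S100a14 and Plscr1, and those that fell were Mal, Myof, Plaat3 and S100a1. The median log2 fold change of the 123 was 0.03, against 0.01 over all genes. The lists were drawn up with results of these data known.

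S100 proteins are the EF-hand partners of annexins. Of 16 measured members, S100a14 rose, S100a1 fell and 14 did not pass (0.369% of all genes rose and 0.333% fell), with a list median of 0.04. S100a14, an S100 protein of epithelia, read 8.69, 8.66 and 9.38 on the HDAC3ΔIEC arrays, against 7.37, 7.46 and 7.58 on the HDAC3FF arrays. All HDAC3ΔIEC mice lay more than 1 log2 unit over the controls, and the log2 fold change was 1.44 ± 0.20 (SE, limma adjusted p = 0.0342). S100a1, best known from muscle, read 9.57, 9.65 and 9.67 on the HDAC3ΔIEC arrays, against 10.17, 10.17 and 10.31 on the HDAC3FF arrays, a difference of -0.58 ± 0.08 log2 units (limma adjusted p = 0.0383). The call of S100a1 was lost with an intensity trend in the prior (limma adjusted p = 0.0723) and with adjustment over all probe sets (0.0504). It was also lost with a replicate block (0.134), and it held in 1 of 6 refits without a single array. S100a14 lost its call with the block too (limma adjusted p = 0.0798) and held it in 2 of those 6 refits.

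Among the S100 proteins best known for pairing with an annexin, S100a10, S100a11 and S100a6 were read in detail, and none of the 3 passed. S100a10, the partner of Anxa2, read 12.55, 12.59 and 12.34 on the HDAC3ΔIEC arrays, against 12.38, 12.31 and 12.68 on the HDAC3FF arrays, a log2 fold change of 0.04 ± 0.13 (SE, 95% confidence interval -0.26 to 0.33). S100a11, the partner of Anxa1, read 11.60, 11.60 and 11.88 on the HDAC3ΔIEC arrays, against 11.58, 11.47 and 11.09 on the HDAC3FF arrays. Its groups were 0.02 log2 units apart, and its log2 fold change of 0.31 ± 0.15 did not pass (limma adjusted p = 0.507). S100a6, which binds Anxa11 and Anxa2, had a log2 fold change of -0.11 ± 0.12, with overlapping groups. The intervals of Anxa2 and S100a10, which form 1 complex, both include 0.

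Mal was read in the list of trafficking and binding partners, of which it fell, none rose and 14 of 15 measured genes did not pass. Over all genes 0.333% fell and 0.369% rose, and the list median was 0.10. MAL is a proteolipid of apical carrier vesicles, and like Anxa13 it is linked to raft-dependent apical transport in canine kidney cells. It read 7.59, 6.51 and 6.71 on the HDAC3ΔIEC arrays, against 9.23, 8.89 and 9.68 on the HDAC3FF arrays. The groups lay 1.30 log2 units apart, and the log2 fold change was -2.33 ± 0.31 (SE, limma adjusted p = 0.0324). Ezr, Myo1a and Actb, which build the cortical cytoskeleton and microvilli under that membrane, had log2 fold changes of 0.52 ± 0.24, 0.24 ± 0.08 and 0.22 ± 0.08, and did not pass. Cdhr5, a protocadherin of microvilli, and Dpp4, a peptidase of the brush border, had -0.29 ± 0.19 and -0.71 ± 0.36 and did not pass either. The brush border gene Sis of the same list was higher in HDAC3ΔIEC, at 1.60 ± 0.51 with no overlap, and did not pass (limma adjusted p = 0.271).

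Other calcium- and phospholipid-binding proteins moved singly. Among 13 measured copines and ferlins, Myof, which encodes the membrane repair protein myoferlin, fell and 12 did not pass. The share of all genes that fell was 0.333%, and the list median was -0.01. Myof read 5.18, 4.80 and 5.08 on the HDAC3ΔIEC arrays, against 5.82, 6.17 and 6.43 on the HDAC3FF arrays, a difference of -1.12 ± 0.17 log2 units (SE, limma adjusted p = 0.0452). The HDAC3ΔIEC values lay under the array medians and the HDAC3FF values above them. The call was lost with adjustment over all probe sets (limma adjusted p = 0.057) and with a replicate block (0.141), and held in 1 of 6 refits without a single array. None of 11 measured membrane repair and calpain genes passed, against 0.701% of all genes. The smallest p-values belonged to Ahnak2 (-0.60 ± 0.14), which encodes a large scaffold related to the Anxa2 partner AHNAK, and to the calpain Capn2 (-0.65 ± 0.17).

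Scramblases and flippases set how much phosphatidylserine, the lipid that annexins bind, faces each side of the membrane. Of 15 measured genes, the phospholipid scramblase Plscr1 rose and 14 did not pass, against 0.369% of all genes that rose. The median of this list was -0.03. Plscr1 read 10.91, 11.05 and 11.16 on the HDAC3ΔIEC arrays, against 10.26, 10.27 and 10.35 on the HDAC3FF arrays, a difference of 0.74 ± 0.09 log2 units (SE, limma adjusted p = 0.0279). The flippase Atp11a differed by -0.77 ± 0.15 log2 units without passing (limma adjusted p = 0.0937).

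Among 17 measured phospholipases A2 and related acyl hydrolases, the enzymes that annexins were first described to inhibit, Plaat3 fell and 16 did not pass. The share of all genes that fell was 0.333%. Plaat3, a phospholipase and acyltransferase best known from adipose tissue, read 7.38, 7.43 and 7.26 on the HDAC3ΔIEC arrays, against 8.26, 8.22 and 8.10 on the HDAC3FF arrays. Its log2 fold change was -0.84 ± 0.09 (SE, limma adjusted p = 0.0169), or 1.79-fold lower, with no overlap. The list median was -0.03.

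Receptors and targets outside the cell gave no call, against 0.701% of all genes. None of 4 measured formyl peptide receptor genes passed (Fpr-rs3 -0.22 ± 0.13 and Fpr-rs6 0.11 ± 0.08, SE), and the receptors best known for Anxa1 were not measured here. None of 6 measured plasminogen system genes passed. Fpr-rs4, Fpr-rs6, Fpr-rs7, Plg, Plat, Plau and Serpinb2 had means over 6 arrays of 3.11 to 3.77, under the 25th percentile of every array. Transcripts that are not expressed also lie there, so a missing call says little about these genes. Plaur, the urokinase receptor, read 7.81, 8.12 and 7.34 on the HDAC3ΔIEC arrays, against 6.17, 6.25 and 7.36 on the HDAC3FF arrays. HDAC3FF replicate 3 stood at the level of the HDAC3ΔIEC mice, and the log2 fold change of 1.16 ± 0.34 did not pass (limma adjusted p = 0.232). The plasminogen receptor gene Plgrkt had -0.23 ± 0.11. None of 17 measured genes of ALG-2 and the ESCRT-III membrane scission machinery passed, with Tsg101 at 0.36 ± 0.11 and Chmp1b at 0.40 ± 0.13 and a list median of 0.14.

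Genes of fetal-like and repairing epithelium, a state in which Anxa1 is a known marker, showed 1 rise among 9 measured members. Over all genes 0.369% rose. Ereg, the EGF receptor ligand epiregulin, rose by 3.07 ± 0.16 (SE, limma adjusted p = 0.000645), with 7.49, 7.89 and 7.49 on the HDAC3ΔIEC arrays, against 4.29, 4.70 and 4.69 on the HDAC3FF arrays. The other 8 did not pass and the list median was 0.05, with 6 of the 9 log2 fold changes positive and 3 negative. The members farthest from 0 after Ereg were Il1rn, which encodes the interleukin-1 receptor antagonist, at 1.23 ± 0.25 with no overlap between the groups (limma adjusted p = 0.1), and Clu and Cd44, at -0.26 ± 0.17 and -0.26 ± 0.18. Of the 7 partner genes that passed with all arrays, Ereg alone passed whichever single array was left out. The number of partner genes that passed was 2, 1 and 2 without HDAC3ΔIEC replicates 1, 2 and 3, and 1, 1 and 8 without HDAC3FF replicates 1, 2 and 3. The shares of all genes moved alongside, at 0.235%, 0.0717% and 0.148% without those HDAC3ΔIEC mice and 0.0666%, 0.235% and 2.2% without those HDAC3FF mice.

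**Figure D4:**
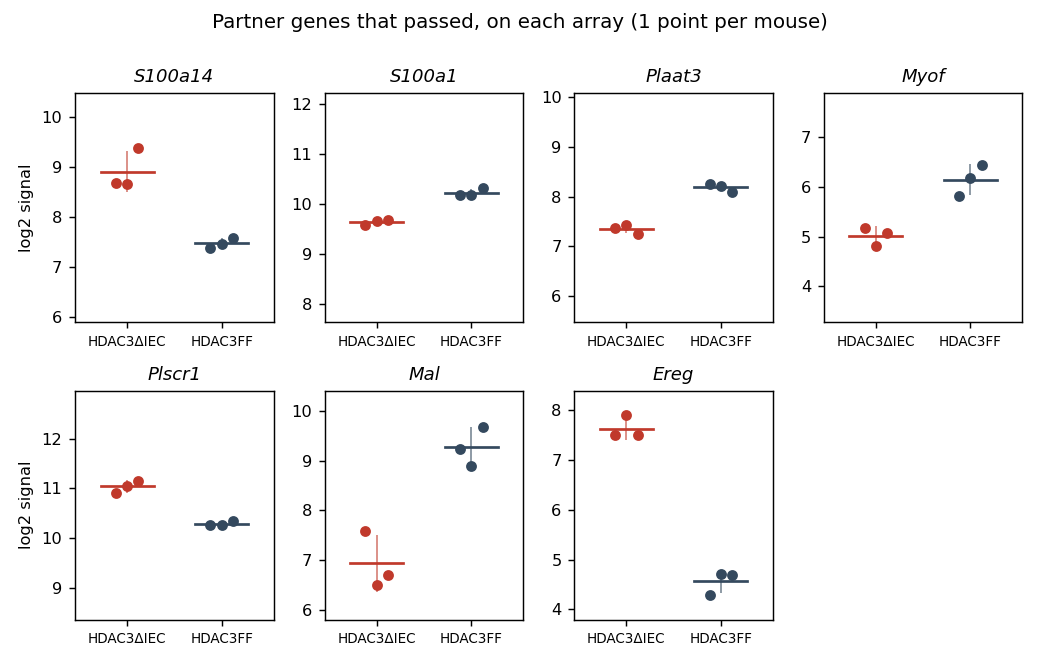
Log2 signal on each array of the 7 partner genes with a limma adjusted p under 0.05, with HDAC3ΔIEC left and HDAC3FF right; points are mice, thick lines group means and thin lines ± 1 SD. S100a14, Plscr1 and Ereg are higher on all 3 HDAC3ΔIEC arrays, and S100a1, Plaat3, Myof and Mal lower. Partner genes are all genes of the lists read beside the annexins, whether or not their proteins bind one.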

How the data were processed

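Per the labels, total RNA of each mouse was labelled with biotin for a single array. Deposited were log2 signals for probe sets, judged from their range. The submitters' processing notes list Affymetrix Power Tools without a role, and how background, normalization and filters were handled is not given in the sources used here. The log2 values deposited by the authors were used without rescaling. Of 24939 probe sets, 21105 name 1 gene in the platform annotation, 1254 several and 2580 none listed; 21022 of the 21105 matched the RefSeq table of GRCm38.p6 by gene number. The probe set with the highest mean per gene was kept (19533 genes). The genotype comparison used limma 3.58.1 in R 4.3.3 (lmFit, eBayes, two-sided, no covariate, 3.26 prior degrees of freedom), with Benjamini-Hochberg adjustment over all genes and calls at an adjusted p under 0.05. SEs and 95% intervals are limma's moderated ones, and intervals are unadjusted.

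The members and lists were chosen with earlier results of these data known. Named genes were all annexins, Hdac3, Epcam, the brightest marker of each list of other cells, called partners or, in lists without one, up to 2 with the smallest p, and the 3 genes most correlated with a called annexin. S100a10, S100a11, S100a6, Atp11a, Ezr, Myo1a, Actb, Cdhr5, Dpp4, Il1rn, Clu, Cd44, C1qa, Cdx1, Cdx2, the keratins, the chromosome neighbours and the genes of the additional observations were named after their values were seen, and motifs were chosen then too. In 3 list entries an older symbol was replaced by the current one (Cavin1, Plaat3 and Sis) after the files were read. The labels do not say whether equal replicate numbers mark paired mice, and the main fit did not treat them as pairs. Deviations of same-numbered arrays correlated at -0.198 to -0.0242, and 3 pairs are too few to decide this. On simulated arrays with 200 of 19533 genes changed (3 against 3 arrays, 5 runs), 25.2%, 74.4%, 96.4% and 99.2% of genes changed by 0.5, 1, 2 and 3 log2 units were called, and 29 of 96665 unchanged ones. Other settings tried were array weights, a replicate block, a trended or robust prior, quantile normalization, median centring, dim filters, other probe set rules, another threshold, unmoderated statistics and omission of arrays. Figures were drawn with matplotlib 3.10.9.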

Additional observations from a re-analysis of the deposited data

How the results depend on the processing

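Under 19 alternative settings, 167 of 187 results for the 10 listed annexins kept their direction and their side of the threshold. Most of these were uncalled members that stayed uncalled, and some settings, such as averaging probe sets, could not change a log2 fold change. The count therefore says little. Of the rest, 13 turned in sign, 2 gained a call and 5 lost one, and all 5 lost calls were those of Anxa13. Anxa13 lost its call with ordinary unmoderated statistics (log2 fold change -1.78, adjusted p = 0.308), where 0 annexins passed lower and 0 partner genes passed. With these statistics 0 genes of the whole array passed and 1858 had an unadjusted p under 0.05, against 137 and 2192 with limma. Leaving out single arrays gave 0 to 1 annexins called higher, 0 to 1 called lower and 1 to 8 partner genes called. Without replicate 3 of both groups, 1 annexin, Anxa4, passed higher (0.58, limma adjusted p = 0.0415), as did 2% of all genes, and 10 partner genes passed in either direction, against 3.81% of all genes. With the replicate block 12 genes of the whole array passed. Anxa13 remained among them (limma adjusted p = 0.0432). Of the partner genes 1 passed, Ereg (0.0107), against 7 without the block, so that S100a14, S100a1, Plscr1, Mal, Myof and Plaat3 lost their calls. 

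Among the listed annexins, signs turned for Anxa6, Anxa10 and Anxa11, whose differences lie near 0. Of the unlisted, Anxa8 turned to 0.13 with HDAC3ΔIEC replicate 3 left out and to 0.06 with HDAC3FF replicate 2 left out, and Anxa9 did not turn. Anxa6 had 0.04 with array weights, 0.00 with median centring, -0.12 to 0.11 with single arrays left out and 0.11 without replicate 3 of both groups. Anxa10 had 0.00 with median centring, -0.06 to 0.06 with single arrays left out and 0.02 without replicate 3 of both groups. Anxa11 had 0.13 with array weights, -0.18 to 0.18 with single arrays left out and 0.30 without replicate 3 of both groups. The cause of these turns was not tested. Dim filters removed Anxa10 at the 25th percentile, and Anxa6 and Anxa10 at the median. As every annexin has 1 probe set, averaging probe sets changed none of them. Quantile normalization and median centring changed the genotype log2 fold changes by a median of -0.00469 and 0.0148 over all genes.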

Other observations

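Sis, which encodes the brush border enzyme sucrase-isomaltase, ranked the mice of each genotype as Anxa13 did, although the genotypes differed in opposite directions. It read 8.48, 6.93 and 6.46 on the HDAC3ΔIEC arrays, against 6.28, 5.44 and 5.34 on the HDAC3FF arrays, a log2 fold change of 1.60 ± 0.51 (SE) that did not pass (limma adjusted p = 0.271). Replicate 1 was thus the highest and replicate 3 the lowest of its group for Anxa13 and for Sis, in HDAC3ΔIEC and in HDAC3FF alike. S100g, the vitamin D-dependent calbindin of absorptive cells, had the same order in HDAC3ΔIEC (12.52, 11.58 and 11.22), while in HDAC3FF (11.79, 11.39 and 11.62) its lowest value was that of replicate 2. Sis and S100g were picked for these values, and the shared order was not tested.

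S100z read 5.42, 5.89 and 6.82 on the HDAC3ΔIEC arrays, against 5.82, 5.80 and 7.23 on the HDAC3FF arrays. Replicate 3 was the highest of its group in both genotypes, and the genotypes differed by -0.24 ± 0.47 log2 units (SE), which did not pass (limma adjusted p = 0.927).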
